A study of Mus musculus with 2 samples.

Results

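The genes described here encode the chaperones of the endoplasmic reticulum (ER), its disulfide isomerases, the machinery of ER-associated degradation, 2 genes of protein entry into the ER, and the sensors of the unfolded protein response. They were taken from a list of 33 genes, and a probe set, a group of short oligonucleotides summarised into 1 signal, was assigned to a member when the platform annotation gave that member as its single gene symbol. All 33 genes were found, with 79 probe sets, out of 18193 genes and 34945 probe sets with 1 symbol. Of the 79 probe sets, 73 were above a floor of 61.3 on at least 1 array and 6 were below it on both. The floor is the 40th percentile of all signals of both arrays. Each gene is given by its brightest probe set, and in that form all 33 genes were above the floor on both arrays, so no direction was fixed by the floor.

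The series holds 2 microarrays of total RNA from mouse embryonic stem (ES) cells, 1 array for cells with a constitutive knockout of Eed (Eed KO) and 1 for the control cells of that knockout. Eed belongs to the core of PRC2, the Polycomb complex that methylates histone H3 on lysine 27 and so helps to keep developmental genes silent. The labels name no treatment, strain, parent line, clone or culture condition for either sample, and neither the way the gene was disrupted nor the presence of feeder cells is stated. With 1 array per group there was no replicate and no test, so every value below is a difference between these 2 arrays, and the number of arrays limits its precision.

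The targeted gene read similarly on both arrays. The brighter of 2 Eed probe sets read 10101 in control cells and 11456 in Eed KO cells, and the dimmer was below the floor on both arrays. The labels do not place the disruption, so a probe set outside it checks nothing. The defining ES cell genes were bright on both arrays, and of 14 pluripotency markers 1 was higher by 2-fold or more in Eed KO cells and 0 were lower. With equal array medians these counts were 1 and 2. Of 22 measured fibroblast markers 17 were higher by 2-fold or more in Eed KO cells, against 10.8% of all measured genes. With equal array medians 13 were, against 6.35%. The summed signal of the list was 27045 on the control array against 57350.3. Its brightest genes in control cells were Fn1, Vim, Tagln and Acta2 (6958.5, 4988.6, 4490.9 and 4361.4). Pdgfrb, Twist1, Col6a1 and Twist2 were near the floor there (63.6, 76.6, 81.3 and 82). Lum and Fap were below the floor on both arrays. Of 18 primitive endoderm markers 8 were higher by 2-fold or more in Eed KO cells and 1 was lower, with summed signals of 14645 and 24954. With equal array medians 6 were higher and 1 lower. In RNA from a whole culture, fewer cells of a type and less RNA per cell cannot be told apart. The part of these markers in the values below was not tested.

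Proteins that enter the ER are folded there by chaperones and joined by disulfide bonds, and those that fail to fold are drawn back into the cytosol and degraded. When unfolded protein builds up, the sensors ATF6, IRE1 (encoded by Ern1) and PERK (encoded by Eif2ak3) signal to the nucleus. ATF6 and the spliced product of Xbp1 bind ER stress response elements (ERSE) in the promoters of chaperone genes, while PERK phosphorylates the translation factor eIF2 alpha, which raises translation of the transcription factor ATF4. Other kinases phosphorylate the same factor, and this common route is called the integrated stress response.

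The promoters are shown first. Herpud1 and the chaperone gene Hspa5 carry different elements, and whether any element bears on the ratios was not tested. The sequences are from RefSeq (build GRCm38.p6), whose promoter table covers 250 bases before to 50 after a gene's start. It held 29 of the 33 members and not Atf6, Derl1, Manf or Hyou1. They were searched on both strands for ERSE (CCAAT, then 9 bases of any kind, then CCACG), ERSE-II (ATTGG, then 1 base of any kind, then CCACG), the core of the unfolded protein response element (TGACGTGG) and a composite element bound by ATF4 (TGATGNAAN). Searches allowed overlaps between motifs. ERSE was present in 9 of the 29 members and in 37 of the 27025 genes of the table (0.137%). ERSE-II was present in 2 members, Herpud1 and Dnajb11, and in 12 genes in all (0.0444%). The ATF4 composite element was present in 1 member, Herpud1, and in 1215 genes in all (4.50%). TGACGTGG was in 0 of the 29 members and in 193 genes (0.714%). A match is a description of letters and does not show binding, and a missing match says only that these letters are not in this window.

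Each stretch below lies upstream of the gene's start, reads 5′ to 3′ along the gene's own strand, and has the matches in capitals. The 6 genes with ERSE are shown to set 4 that read lower in the Eed KO (Hspa5, Hsp90b1, Calr and Pdia6) beside 2 that read higher (Dnajc3 and Syvn1). Herpud1 is shown for its ERSE-II and ATF4 element, and Chac1, a target of ATF4, because its 9 matching letters (GTTGCATCA) are those of Herpud1.
Hspa5, chr2:34771990-34772089, plus strand, ERSE: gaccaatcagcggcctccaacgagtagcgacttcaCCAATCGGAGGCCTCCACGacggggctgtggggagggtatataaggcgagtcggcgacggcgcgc
Hsp90b1, chr10:86705525-86705674, minus strand, ERSE on both strands: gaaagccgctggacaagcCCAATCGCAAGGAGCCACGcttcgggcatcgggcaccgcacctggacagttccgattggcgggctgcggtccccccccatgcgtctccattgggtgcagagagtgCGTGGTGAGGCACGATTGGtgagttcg
Calr, chr8:84847057-84847106, minus strand, ERSE on the opposite strand: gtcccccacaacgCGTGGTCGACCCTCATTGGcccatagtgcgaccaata
Pdia6, chr12:17266479-17266528, plus strand, ERSE: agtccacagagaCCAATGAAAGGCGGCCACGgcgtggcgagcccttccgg
Dnajc3, chr14:118937812-118937861, plus strand, ERSE: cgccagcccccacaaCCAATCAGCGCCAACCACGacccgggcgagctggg
Syvn1, chr19:6046516-6046565, plus strand, ERSE: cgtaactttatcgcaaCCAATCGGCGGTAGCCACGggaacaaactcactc
Herpud1, chr8:94386299-94386398, plus strand, ATF4 element on the opposite strand and ERSE-II: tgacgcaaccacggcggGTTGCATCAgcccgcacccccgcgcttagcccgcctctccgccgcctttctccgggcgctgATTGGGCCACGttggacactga
Chac1, chr2:119351032-119351081, plus strand, ATF4 element on the opposite strand: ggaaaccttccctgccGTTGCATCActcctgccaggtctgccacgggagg

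The arrays set the cells labelled Eed KO against their control cells. Among the members 1 gene, Herpud1, read higher in Eed KO cells by 2-fold or more and 0 read lower by as much. Over all 13794 genes above the floor on at least 1 array, 10.8% were higher and 3.27% lower by 2-fold or more. At 1.5-fold, 6 of the 33 members (18.2%) were higher against 23.3% of all genes, and 3 (9.09%) were lower against 10.2% of all genes. The members were therefore called no more often than genes at large. Their median log2 ratio was 0.34 against 0.12 for all genes, and 22 (66.7%) had a ratio above 1 and 11 below, against 58.9% of all genes above 1. When both arrays were given equal medians, these values shifted down together, to 0.03 and -0.16, and the members then held 1 gene past 2-fold upward and 2 downward (6.35% and 7.53% of all genes).

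**Figure D1:**
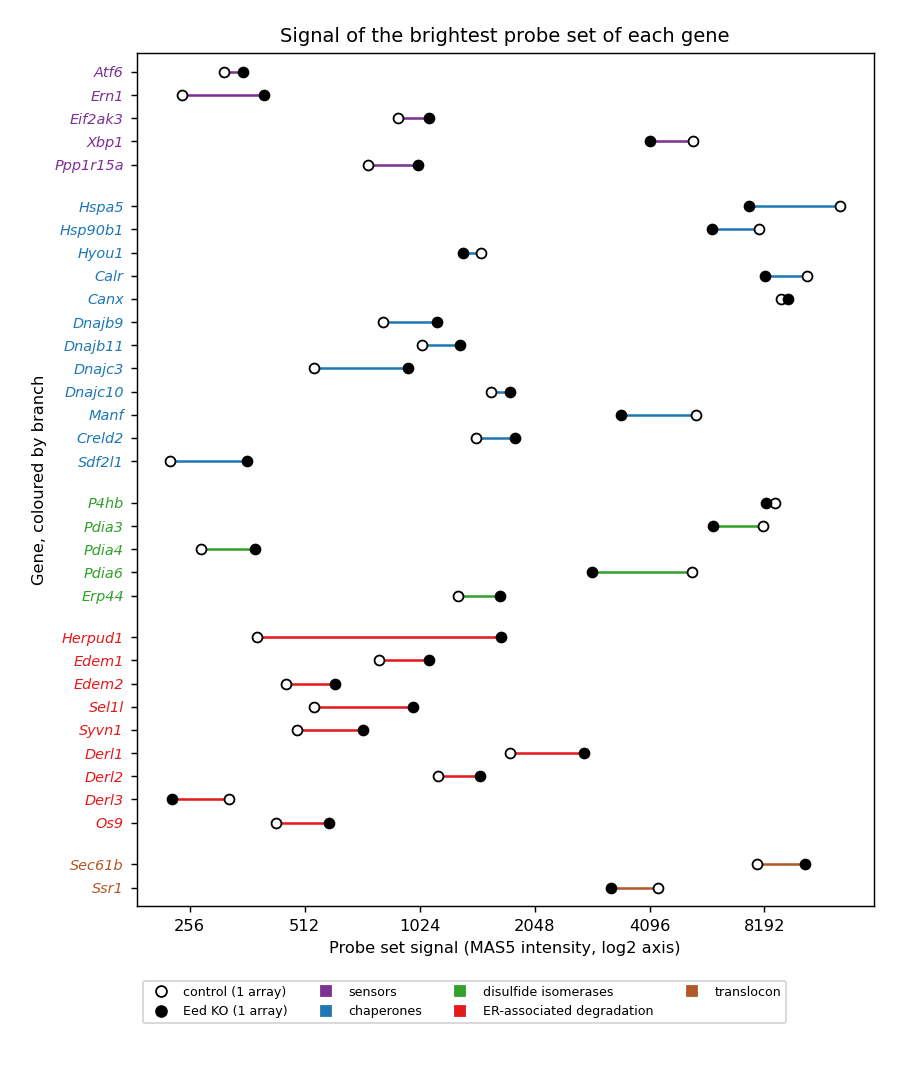
Signal of the brightest probe set of each of the 33 genes (MAS5 intensity on a log2 axis) in the control (open circle) and the Eed KO (filled circle), 1 array each, with lines coloured by branch. Herpud1 has the longest line, from 384.0 to 1672. The lines of Xbp1, Hspa5, Hsp90b1, Hyou1, Calr, Manf, P4hb, Pdia3, Pdia6, Derl3 and Ssr1 run the other way.

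The 3 sensors, Xbp1 and Ppp1r15a stayed within 2-fold. Ern1, the kinase and nuclease IRE1 that splices Xbp1 mRNA, read 245 in control cells and 400 in Eed KO cells, a log2 ratio of 0.71, and its 2 other measured probe sets gave 0.50 and 0.68, the latter with the control below the floor. Eif2ak3, the kinase PERK, read 898 and 1087 (log2 ratio 0.28), and Atf6, the transcription factor cut free in the Golgi, read 315.0 and 352 (0.16). The higher reading of Ern1 kept its sign in every scaling, while Atf6 (down to -0.15) and Eif2ak3 (-0.03) changed sign with equal array medians, and Atf6 also after quantile normalization and with poly-A spike scaling. Xbp1, the transcription factor downstream of IRE1, went the other way. It read 5337 in control cells and 4108.5 in Eed KO cells (log2 ratio -0.38), and its 3 other probe sets gave -0.35 to -0.14. These probe sets report total Xbp1 signal, and the spliced form was not analysed here. Ppp1r15a (GADD34), the phosphatase subunit that reverses eIF2 alpha phosphorylation and a target of the PERK route, read 749 and 1015.5 (log2 ratio 0.44).

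Herpud1 had the largest ratio of the 33 members. It encodes HERP, an ER membrane protein with a ubiquitin-like domain that helps assemble the degradation complex. Its brighter probe set read 384.0 in control cells and 1672 in Eed KO cells, a 4.35-fold higher signal (log2 ratio 2.12). The dimmer probe set read 185 and 1691, a log2 ratio of 3.19. Both probe sets were thus higher in Eed KO cells by well over 2-fold. Among the 13794 measured genes 177 had a log2 ratio at or above that of Herpud1, and its ratio stayed above 2-fold in all 10 alternative ways of processing (log2 ratio 1.82 to 2.66).

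The rest of the degradation machinery gave smaller values in the same direction, except Derl3. Sel1l, the adaptor that holds the ubiquitin ligase complex together, read 543 and 982 (log2 ratio 0.86), and all 5 of its probe sets had a ratio above 1 (0.34 to 1.11). Syvn1, the ubiquitin ligase HRD1 itself, read 489 and 726 (log2 ratio 0.57). The ligase and its adaptor were thus both higher in the Eed KO array, by less than 2-fold in their brightest probe sets. Of the derlins, membrane proteins of the export channel, Derl1 read 1769 and 2752 (log2 ratio 0.64, with 0.13 to 0.21 for its 3 other probe sets). Derl2 read 1143 and 1474 (log2 ratio 0.37, and 0.77 for the other probe set), whereas Derl3 read 324 in control cells and 231 in Eed KO cells (log2 ratio -0.49). Edem1, Edem2 and the lectin gene Os9 had log2 ratios of 0.44, 0.43 and 0.46. The other probe sets of Edem1 and Os9 were near no difference, at 0.04 and 0.01. Of the 9 degradation genes 8 had a ratio above 1 and their median log2 ratio was 0.46, which was 0.15 with equal array medians. All 9 kept their direction under the 5 other scalings.

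The chaperone genes Hspa5, Hsp90b1, Calr and Manf read lower in the Eed KO array. Hspa5 encodes BiP, the Hsp70 of the ER that also holds the sensors inactive. Its brightest probe set read 12927 in control cells and 7467 in Eed KO cells, 1.73-fold lower (log2 ratio -0.79). A further probe set read 8959.6 and 4175 (log2 ratio -1.10), and a dim probe set (662 and 713) gave 0.11. Hsp90b1, the Hsp90 of the ER (GRP94), read 7944 and 5980.5 (log2 ratio -0.41, and -0.66 for the other probe set). Calr, calreticulin, the soluble lectin that holds glycoproteins during folding, read 10581 and 8225 (log2 ratio -0.36, with -0.88 and -0.57 for the other probe sets). Canx, calnexin, its membrane-bound relative, was close to level, with 9057.5 and 9464 (log2 ratio 0.06, and -0.24 to 0.21 over the scalings). Manf, a secreted ER-resident protein that binds BiP, read 5412 and 3450 in its only probe set (log2 ratio -0.65). Hspa5, Hsp90b1, Calr and Manf kept a ratio below 1 in all 10 alternatives. Hyou1, a large Hsp70 relative that exchanges nucleotide on BiP, read 1486 and 1327 (log2 ratio -0.16), turning to 0.10 without probe sets shared between transcripts.

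The J-domain co-chaperones of BiP among the members read higher in the Eed KO array as deposited. Dnajc3 (p58IPK), a J-domain protein that also inhibits PERK, read 542 in control cells and 955.5 in Eed KO cells (log2 ratio 0.82), and its 4 other probe sets gave 0.01 to 0.78. Dnajb9 (ERdj4) read 819 and 1136 (log2 ratio 0.47), and Dnajb11 (ERdj3) 1037 and 1309 (0.34). The J-domain reductase Dnajc10 (ERdj5) read 1574 and 1769 (log2 ratio 0.17), which was -0.14 with equal array medians and also below 0 with poly-A spike scaling. Sdf2l1, a partner of ERdj3, read 227 and 360.4 (log2 ratio 0.67), and Creld2, a secreted ER stress protein, 1436 and 1819 (0.34). Of the 12 chaperone genes 7 thus had a ratio above 1 and 5 below, with a median log2 ratio of 0.12, which was -0.19 with equal array medians.

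**Figure D2:**
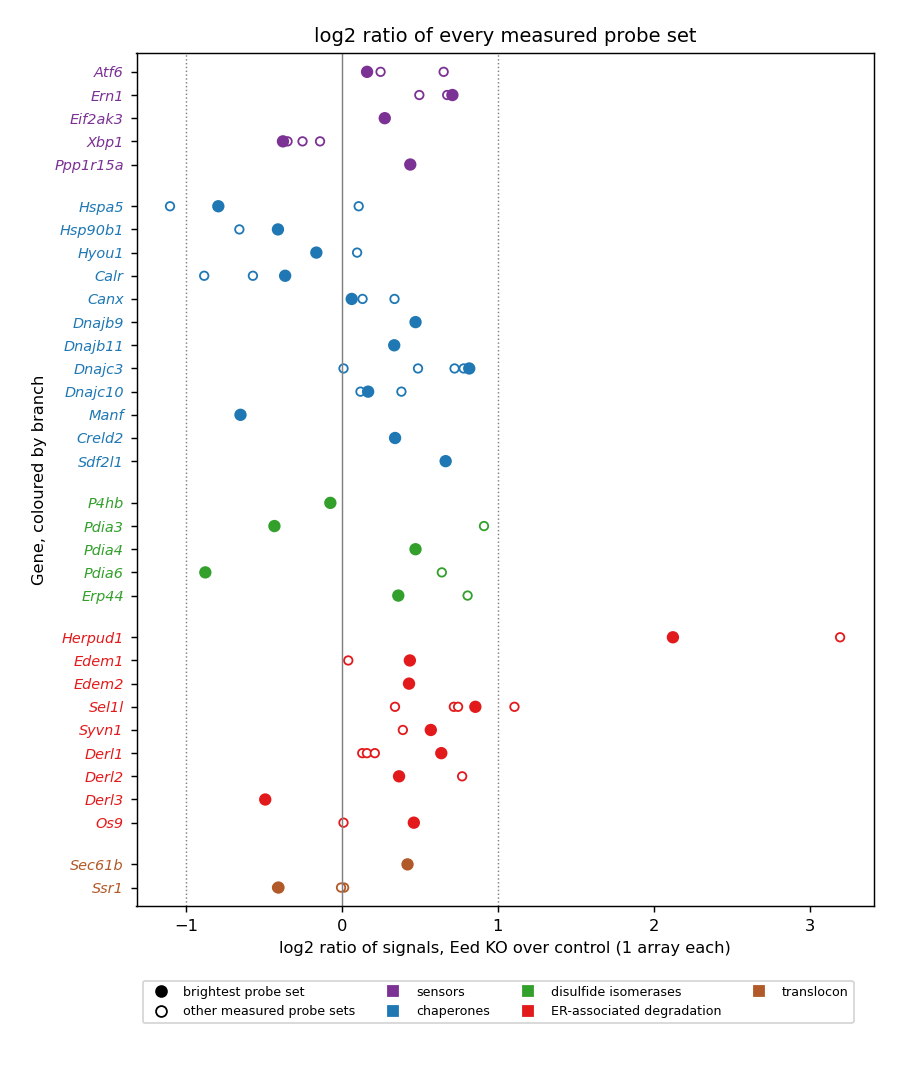
The log2 ratio of signals, Eed KO over control, for each of the 73 measured probe sets, with the brightest probe set of a gene filled and the others open. Dotted lines mark 2-fold in either direction. Both Herpud1 probe sets lie beyond 2, while Pdia3, Pdia6, Hspa5, Hyou1 and Ssr1 have a probe set on the other side of 0.

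The disulfide isomerases were divided. Pdia6, an isomerase that binds BiP and attenuates the sensors, read 5300 in control cells and 2889.6 in Eed KO cells, 1.83-fold lower (log2 ratio -0.88). Pdia3 (ERp57), which works with calnexin and calreticulin, read 8111 and 6011 (log2 ratio -0.43). Each had a second probe set that was below the floor in the control and above it in the Eed KO, so that its direction was fixed by the floor, with log2 ratios of 0.64 and 0.91, and the mean over probe sets was -0.12 for Pdia6 and 0.24 for Pdia3. P4hb, protein disulfide isomerase itself, read 8723 and 8289.5 (log2 ratio -0.07), turning to 0.07 by quantile normalization and to 0.05 once the intensity trend was removed. Pdia4 (ERp72) read 274 and 379.6 (log2 ratio 0.47), and Erp44, which retains partly assembled proteins in the early secretory pathway, 1293 and 1662 (0.36, and 0.81 for the other probe set). Of the 5 genes 2 had a ratio above 1 and 3 below.

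Both genes of protein entry were bright and differed in direction. Sec61b, a subunit of the channel through which new proteins enter the ER, read 7815 in control cells and 10464 in Eed KO cells (log2 ratio 0.42). Ssr1, a subunit of the translocon-associated complex, read 4313 and 3254 (log2 ratio -0.41). Its 3 other probe sets gave -0.42 to 0.01. Of these, 1 that read 2101 and 2122 and 1 that read 256 and 255 were close to level. The lowest read 93.5 and 70.1, near the floor.

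The direction of the members differed between classes of brightness. Of the 9 members with a mean signal above 4096, 7 had a ratio below 1, with a median log2 ratio of -0.38. Of all 1027 genes that bright 64.2% had a ratio below 1, with a median of -0.12. Of the 15 members between 256 and 1024, 14 had a ratio above 1 and the median was 0.47, against 59.6% above 1 and a median of 0.14 over 4343 genes. In these classes the members leaned the same way as other genes, with a median farther from 0. In the class between, from 1024 to 4096, they leaned the other way: 6 of 9 members had a ratio above 1, with a median of 0.34, while 56.0% of 3061 genes had a ratio below 1, with a median of -0.07. When the intensity trend was removed, Hspa5 had a log2 ratio of -0.68, Pdia6 of -0.75, Sel1l of 0.81 and Herpud1 of 2.09. The smaller ratios of Hsp90b1, Calr, Pdia3, Xbp1 and Ssr1 were then -0.28, -0.25, -0.30, -0.25 and -0.28. As deposited they were -0.41, -0.36, -0.43, -0.38 and -0.41. Derl3, a dim member, moved the other way, from -0.49 to -0.66. The spread of the log2 ratio between probe sets of 1 gene was taken within these 2 arrays. The SD of that ratio for a single probe set, from the difference between the 2 brightest measured probe sets of a gene, was 0.16 above a signal of 4096, 0.21 between 1024 and 4096, 0.29 between 256 and 1024 and 0.50 below 256. Pairs were classed by the signal of their dimmer probe set. This SD does not include the spread between cultures, or any error shared by the probe sets of an array. Of the 21 members with several measured probe sets, 16 had all of them on the same side of 0.

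**Figure D3:**
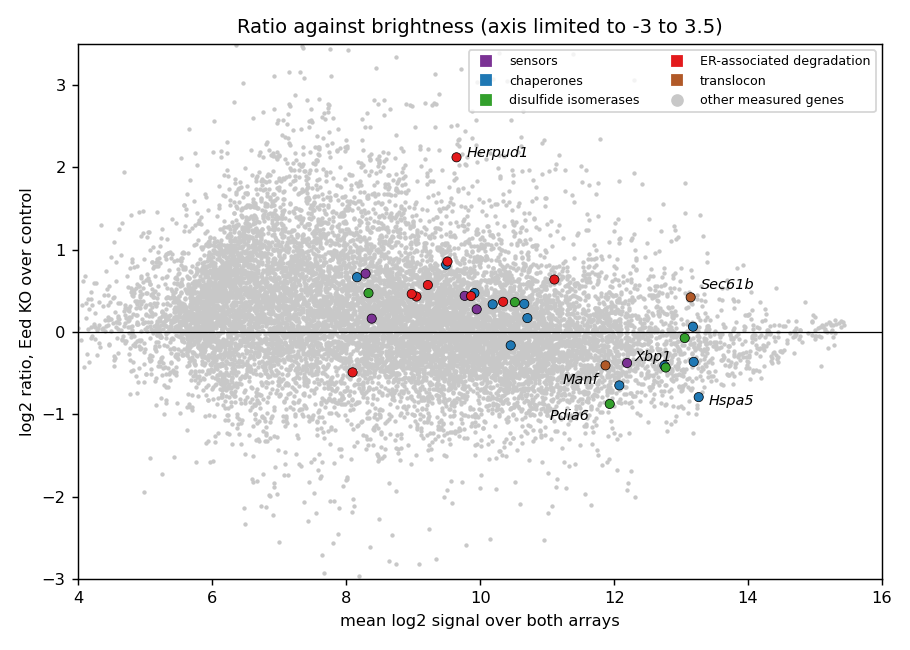
The log2 ratio, Eed KO over control, against the mean log2 signal over both arrays, for the 33 members coloured by branch and all other measured genes in grey (vertical axis limited to -3 to 3.5). Of the 9 brightest members 7 lie below 0, the dimmer members lie mostly above it, and Herpud1 stands at 2.12.

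Set against the promoters printed above, the members with ERSE lay on both sides of no difference. Of the 9 members with ERSE 5 had a ratio below 1 (Hspa5, Hsp90b1, Calr, Pdia6 and Derl3) and 4 above (Canx, Dnajc3, Creld2 and Syvn1), with a median log2 ratio of -0.36, a low of -0.88 and a high of 0.82. Of the 20 members whose windows lacked it, 16 had a ratio above 1 and 4 below, with a median of 0.43. Canx is counted above 1 with the deposited scaling and falls below it with 3 of the 5 other scalings. Among the members without ERSE, Eif2ak3, Dnajc10 and P4hb also changed sign under at least 1 scaling. Mean signals above 4096 were found for Hspa5, Hsp90b1, Calr and Canx with ERSE, and for Xbp1, P4hb, Pdia3 and Sec61b without it. The part of brightness in the difference between these medians was not tested. Dnajb11, the other gene with ERSE-II, where the match begins 8 bases into the transcript, had a log2 ratio of 0.34 against 2.12 for Herpud1.

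Other genes of the pathway, from lists of related genes, were read in the same way. In the PERK and ATF4 arm, which the integrated stress response shares, 7 of 8 measured genes passed 2-fold upward and 0 downward, with a median log2 ratio of 2.23 and a range over the scalings of 1.92 to 2.17. With equal array medians 5 of the 8 passed 2-fold upward, against 6.35% of all genes. Atf4 itself read 4879 and 11907 (log2 ratio 1.29), and Ddit3 (CHOP), a transcription factor of the late stress response, 188 and 986 (2.39). Nupr1, Chac1 and Atf3 had the highest log2 ratios of the list, at 5.38, 4.61 and 2.56. Atf3 read 71.7 on the control array, near the floor, and its log2 ratio was 1.33 at its lowest over the 10 alternatives. The ATF4 composite element was present in the promoters of 5 of the 9 genes of that list, against 4.50% of all genes. These were Atf3, Trib3, Chac1, Asns and Nupr1. The list was drawn up as the ATF4 arm, so a share above that of all genes was likely in advance. Whether the element bears on any ratio was not tested. The list was also put together with earlier results of these arrays known, so its counts are not independent evidence.

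Of the remaining 94 measured genes of ER sensing, folding, degradation and translocation, 9 (9.57%) passed 2-fold upward, near the 10.8% of all genes, and 0 downward, with a median log2 ratio of 0.24, which was -0.07 with equal array medians, where 2 passed 2-fold (Qsox1 and Erlec1). Among 20 other chaperones and lectins 3 were at least 2-fold higher. They were Serpinh1 (HSP47), the collagen chaperone, which read 1404.5 and 3166.5 (log2 ratio 1.17), Fkbp7, a prolyl isomerase (1.08), and Dnajc1 (1.06, or 0.50 when its probe sets were averaged). Among 24 other degradation genes 3 were at least 2-fold higher: the lectin Erlec1 (1.51), the cytosolic glycanase Ngly1 (1.16) and Faf2 (1.15). Erlec1 read 415 and 1179, and its log2 ratio was 0.97 when its probe sets were averaged. Qsox1, a sulfhydryl oxidase, was the 1 gene at least 2-fold higher of 13 other isomerases and oxidases (214 and 545, log2 ratio 1.35). It was followed by Tmx2 (0.80) and Pdia5 (0.69). Among 26 genes of translocation and glycosylation Sec63, a membrane J-domain protein, was 1 at 2-fold (log2 ratio 1.02), ahead of Sec62 (0.90, or 0.17 when averaged) and Srprb (0.88). Among 11 other sensors Creb3l2 was 1 at 2-fold (131 and 288, log2 ratio 1.14), with Wfs1 at 0.99 and Creb3l1 at 0.91. The fibroblast markers given above were higher in the same array, and their part in the values of Serpinh1, Fkbp7 and Creb3l2 was not tested.

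**Figure D4:**
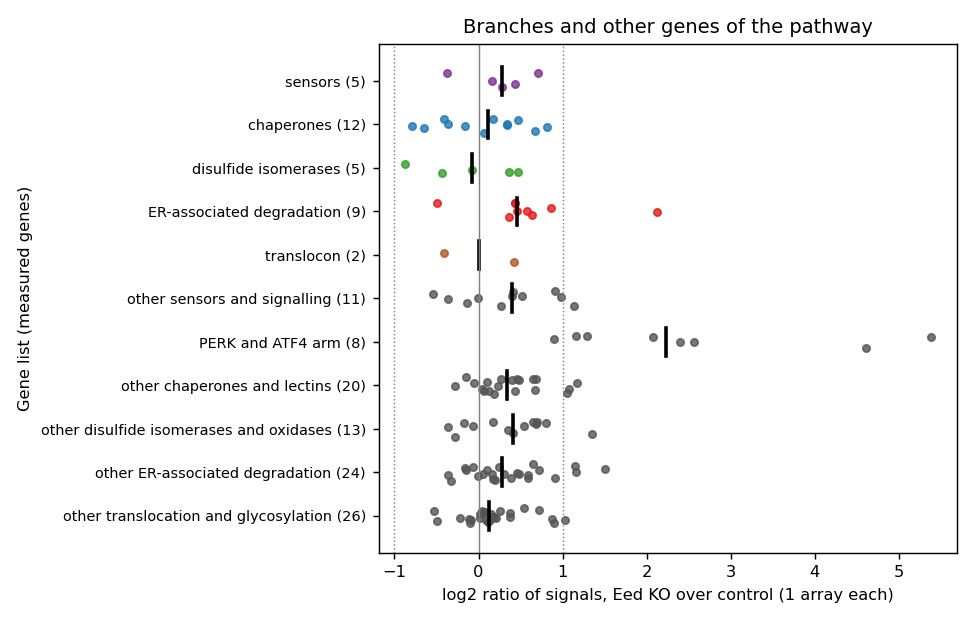
The log2 ratio, Eed KO over control, of each measured gene by list, with the number of genes in brackets, a black bar at the median and dotted lines at 2-fold. The PERK and ATF4 arm has its median at 2.23, and the median of every other list lies between -0.07 and 0.46.

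Of the 33 members 28 kept their direction under all 5 other scalings of the arrays, 18 with a ratio above 1 and 10 below. The 5 that changed sign under at least 1 scaling were Atf6, Eif2ak3, Canx, Dnajc10 and P4hb. Over all 10 alternatives, 18 kept a ratio above 1 and 8 a ratio below 1.

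**Figure D5:**
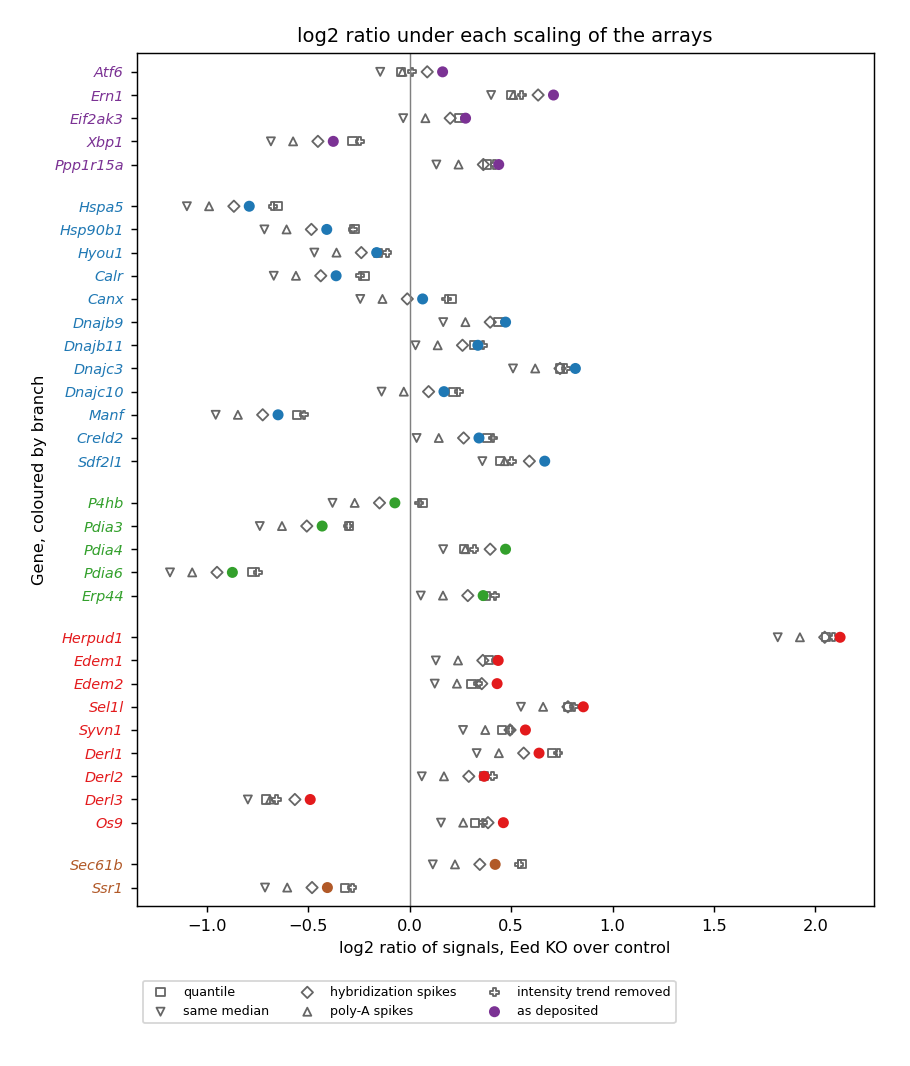
The log2 ratio of each gene as deposited (filled, coloured by branch) and under 5 other scalings of the arrays (open symbols). Giving both arrays equal medians moves every gene to the left, Herpud1 stays between 1.82 and 2.12, and Atf6, Eif2ak3, Canx, Dnajc10 and P4hb have symbols on both sides of 0.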

How the data were processed

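Total RNA was labelled as biotinylated cRNA and hybridized to Affymetrix MOE430 2.0 arrays, 1 for the control and 1 for the Eed KO, per the labels' protocols. The deposited values are linear probe set intensities, computed by the authors with MAS5 per the submitters' processing notes, with no version given there. They had been scaled on each array: the mean after removal of the lowest and highest 2% was 500.003 on both. The table used here holds no detection call.

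Of 45101 probe sets, 34945 had 1 symbol in the platform annotation, 932 had several, 9160 had none in that table and 64 were controls. A gene was represented by its brightest probe set, by the mean of both log2 signals. Signals below the floor were set to it, and ratios were taken on the log2 scale. A call was a difference of at least 2-fold. No test was possible with 1 array per group. Alternatives were 5 other scalings, a lower floor (25th percentile) and a higher one (60th), a pseudocount of 32 instead of a floor, averaging a gene's measured probe sets, dropping those named _x_at or _s_at, which can match several transcripts, and other thresholds for a call (1.5-fold, 3-fold). The intensity trend was fitted by lowess with a span of 0.3. The code was tested on simulated data. The members, lists and tests were chosen with earlier results of these data known. All 33 members are described. Of the other lists, up to 3 genes with the largest absolute log2 ratio above the floor on both arrays are named, with Atf4 and Ddit3 and the genes holding a motif added after their values were seen. Python 3.11.15, pandas 2.3.3 and statsmodels 0.14.6 were used.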

Additional observations from a re-analysis of the deposited data

How the results depend on the processing

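Herpud1 was the 1 member at least 2-fold higher in all 10 alternatives and at 3-fold, and at 1.5-fold 6 members were higher and 3 lower. The count at least 2-fold lower, 0 as deposited, was 2 with equal array medians (Hspa5 and Pdia6, log2 ratios of -1.10 and -1.18) and 1 with poly-A spike scaling (Pdia6, -1.07). The members' median log2 ratio of 0.34 became 0.034 with equal medians and 0.14 with poly-A spike scaling, as the median of all genes moved from 0.12 to -0.16 and -0.06. Over all genes the higher share of 2-fold calls was 45.8% with equal medians, 57.6% with poly-A spikes and 64.6% after quantile normalization. For single members, 278 values stayed within the probe set SD of the deposited value 49 moved by more without reaching 2-fold anew, and 3 are those just named at 2-fold or more. No replicate could be left out. No paired analysis was possible because each group has 1 array. Below a signal of 256 the probe set SD of 0.50 limits what a ratio can show.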
